A study of Homo sapiens with 6 samples.

Results

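Integrins are the receptors by which cells hold on to the extracellular matrix, and focal adhesion adaptors are the proteins that tie them to actin. Their transcripts were followed in HEK293 cells, an established line that began as embryonic kidney cells carrying adenovirus DNA. The genes were taken by symbol: every ITGA or ITGB gene with a number (ITGA2B included), ITGAV, ITGAE, ITGAL, ITGAM and ITGAX, and the adaptor genes TLN1, TLN2, FERMT1, FERMT2, FERMT3, VCL, ZYX, PXN, PTK2, ILK, PARVA and PARVB. This gave 37 of the 61806 genes in the table, made up of 17 alpha subunits, 8 beta subunits and 12 adaptors. No expression value entered the rule, although the members were chosen with earlier results of these data known.

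Poly(A) RNA of 6 libraries was sequenced: 3 from cells given the rs16851030 variant by CRISPR homology-directed repair (the mutant) and 3 from wild-type cells. All were HEK293 cells grown in the same serum-containing medium. The variant is an allele of ADORA1, the adenosine A1 receptor gene. Mutant and wild-type cells were set against each other to find transcripts that differ with it. The series describes biological replicates without saying whether the mutant cells were 1 clone, several clones or a pool. An effect of the variant and a difference between the grown lines therefore cannot be told apart, and p-values measure the spread between these libraries.

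An integrin is a pair of 1 alpha and 1 beta chain. The alpha chain sets most of the choice of ligand: some recognise the arginine-glycine-aspartate (RGD) sequence of fibronectin and vitronectin, others laminins, others collagens, and a further set is used mainly by leukocytes. ITGB1 is the common partner of most matrix-binding alpha chains. Talins and kindlins bind the beta tail and switch the receptor on, the ILK, PINCH and parvin complex and vinculin link it to actin, and paxillin with focal adhesion kinase (PTK2) passes the signal on.

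Assigned counts ran from 16013460 to 20349609 across mutant replicates, against from 16867853 to 17938985 across wild-type replicates. ADORA1 itself had 48, 46 and 34 counts across mutant replicates, against 44, 29 and 33 across wild-type replicates, and did not pass the test (log2 fold change 0.19, SE 0.24, adjusted p = 0.604, edgeR fit without an expression filter). Of 8 genes known from HEK293 cells 6 were tested, of which 1 rose and 5 fell. Of all tested genes 29.3% rose and 28.7% fell. In the fit without an expression filter 3 of the 8 were called higher and 5 lower. In that fit 14.0% of all genes were higher and 13.3% lower. Vimentin fell, at 87.4 ± 1.13 FPKM (SD, n = 3) in the mutant and 153 ± 11.6 FPKM (SD, n = 3) in the wild type, as did NEFM, INA, KRT18 and CDH2, by 0.24 (CDH2) to 1.15 (INA) on the log2 scale, and NEFL rose by 0.45. PAX2, a kidney progenitor factor, was near 0, at 0.233 ± 0.0551 FPKM in the mutant and 0.0967 ± 0.0603 FPKM in the wild type. KRT8 stood at 1.12 ± 0.0361 FPKM in the mutant and 0.503 ± 0.0751 FPKM in the wild type. Both were called higher without the filter, with log2 fold changes of 1.17 for PAX2 and 1.07 for KRT8. FPKM is the count scaled to exon length and to the total count of the library.

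Reads of ITGB1 have a second place to go, and the sequence is shown because it bears on the most abundant integrin transcript. ITGB1P1, a processed pseudogene on chromosome 19 (GRCh38, chr19:14621634-14622242, minus strand), is 609 bases long. All 609 bases are 100% identical to bases 1851 to 2459 of the ITGB1 reference mRNA (3640 bases in GENCODE 29, coding bases 66 to 2459), the last part of its coding sequence. The match spans 3 exon junctions of ITGB1, which the pseudogene holds as continuous DNA. The 60 bases around the junction of exons 13 and 14 are printed with exon 13 in lower case and exon 14 in capitals, and the letters are the same in the mRNA and in the pseudogene.
ITGB1 mRNA and ITGB1P1: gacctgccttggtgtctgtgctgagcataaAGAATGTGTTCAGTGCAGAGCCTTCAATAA
ITGB1P1 was listed with 154, 119 and 103 counts across mutant replicates, against 153, 140 and 151 counts across wild-type replicates, which was 4.54 to 5.23% of the counts of ITGB1 and ITGB1P1 together in the mutant and 4.64 to 4.78% in the wild type. The 2 ranges overlap, and adding the pseudogene's counts to ITGB1 left its log2 fold change at -0.36. With so small a share and a log2 fold change of -0.29 for ITGB1P1 itself, the sum could hardly differ. Reads that match both places equally may be in neither row, so the sum does not show what the shared sequence does to ITGB1's counts.

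Alpha subunit transcripts were mostly higher in the mutant, whereas ITGB1 was lower and the adaptors were split. A gene was tested where its mean over the 6 libraries reached 1 FPKM, and 21 members did: 9 alpha subunits, 2 beta subunits and 10 adaptors. In edgeR's quasi-likelihood test with Benjamini-Hochberg adjustment over all 12550 tested genes, called at an adjusted p below 0.05, 11 of the 21 rose, 5 fell and 5 did not pass. In the same test 58.1% of all tested genes were called, 29.3% as higher and 28.7% as lower. On the TPM scale 11 members were called higher and 3 lower, and of all called genes 62.4% were higher, against 50.5% in the edgeR test. Among the tested alpha subunits 7 rose, 1 fell and 1 did not pass, with a median log2 fold change of 0.44, against -0.0014 over all tested genes. Among the tested adaptors 3 rose, 3 fell and 4 did not pass, with a median of -0.08. The mutant and wild-type libraries did not overlap for 16 of the 21 members (62.9% of all tested genes), 11 with every mutant library above and 5 with every mutant library below.

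**Figure D1:**
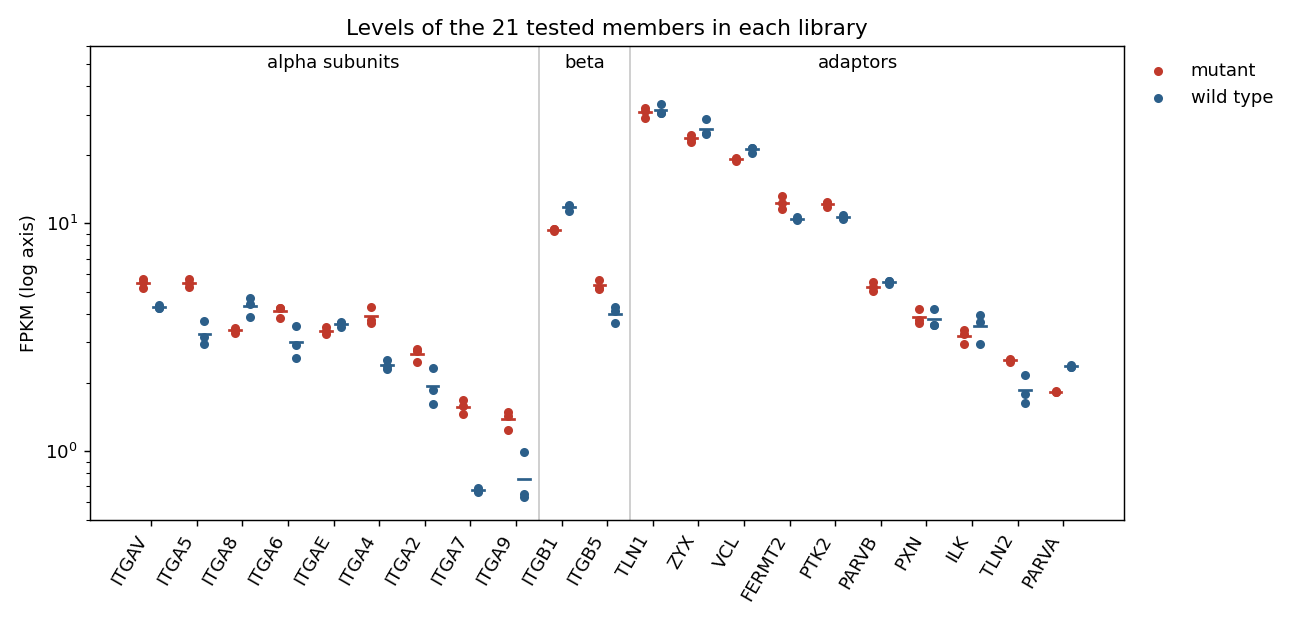
FPKM (log axis) of the 21 tested members, with 1 point per library and a bar at the mean of 3 libraries, mutant on the left and wild type on the right of each pair. TLN1 and ZYX are the highest adaptors, and ITGA5, ITGA4 and ITGA7 show mutant points clear of the wild-type points.

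Among RGD receptors, ITGA5 and ITGAV rose and ITGA8 fell. ITGA5, the alpha chain of the main fibronectin receptor (GRCh38 chromosome 12, 54395261 to 54419266, minus strand), had 5.24, 5.46 and 5.70 FPKM across mutant replicates, against 3.73, 2.95 and 3.16 FPKM across wild-type replicates. The lowest mutant library stood well above the highest wild-type library, and the log2 fold change was 0.70 (SE 0.08, adjusted p = 1.10e-06). ITGAV, the alpha chain of the vitronectin receptors (chromosome 2, 186590010 to 186680901, plus strand), had 5.55, 5.20 and 5.69 FPKM across mutant replicates, against 4.23, 4.38 and 4.26 FPKM across wild-type replicates. Its groups did not overlap either, and the log2 fold change was smaller, at 0.32 (SE 0.05, adjusted p = 2.32e-05). ITGA8, which binds nephronectin in the developing kidney (chromosome 10, 15513954 to 15719922, minus strand), went the other way. It had 3.41, 3.30 and 3.48 FPKM across mutant replicates, against 4.68, 4.42 and 3.89 FPKM across wild-type replicates, so that its log2 fold change was -0.38 (SE 0.08, adjusted p = 0.000505). It was the single alpha subunit called lower.

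ITGA4 and ITGA9, the alpha chains that bind VCAM1, osteopontin and splice forms of fibronectin, both rose. ITGA4 (chromosome 2, 181457202 to 181538940, plus strand) had 3.66, 3.77 and 4.27 FPKM across mutant replicates, against 2.51, 2.29 and 2.36 FPKM across wild-type replicates. Every mutant library was above every wild-type library, and the log2 fold change came to 0.67 (SE 0.08, adjusted p = 7.13e-07). ITGA9 (chromosome 3, 37452115 to 37823507, plus strand) was lower in level, with 1.24, 1.49 and 1.42 FPKM across mutant replicates, against 0.65, 0.63 and 0.99 FPKM across wild-type replicates. Wild-type replicate 3 stood apart from the other two, yet the groups did not overlap (log2 fold change 0.83, SE 0.16, adjusted p = 0.000185). An antisense gene, ITGA9-AS1, shares 6.46% of ITGA9's exonic bases, and reads of the 2 strands may not have been kept apart, since the strand setting of the counting is not stated.

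The laminin-binding chains rose as well, ITGA7 by the most among tested members. ITGA7, best known from the muscle laminin receptor (chromosome 12, 55684568 to 55716404, minus strand), had 1.57, 1.67 and 1.46 FPKM across mutant replicates, against 0.67, 0.69 and 0.66 FPKM across wild-type replicates. Its 2.29-fold difference (log2 fold change 1.19, SE 0.12, adjusted p = 1.40e-07) was the only one of at least 2-fold among the 21. That rank depends on the expression minimum, which ITGA7 passed through its mutant values. ITGA1, ITGA2B and ITGB3, which lay below the minimum, were called higher at 2.22-fold, 2.37-fold and 3.27-fold in the fit without it. Summed FPKM of 6 muscle genes was 2.26 to 2.76 across mutant replicates, against 1.81 to 1.90 across wild-type replicates, with MYOG at 0 in the mutant, DES at 0.247 FPKM in the mutant and 0.170 FPKM in the wild type, and MYOD1 at 1.39 FPKM in the mutant and 0.293 FPKM in the wild type. ACTA1 stood at 0.0900 FPKM in the mutant and 0.337 FPKM in the wild type, and MYH3 at 0.780 FPKM in the mutant and 0.970 FPKM in the wild type. The part of these genes in the result was not tested. ITGA6, the epithelial laminin receptor chain (chromosome 2, 172427354 to 172506459, plus strand), had 4.25, 4.26 and 3.84 FPKM across mutant replicates, against 3.54, 2.57 and 2.93 FPKM across wild-type replicates. The gap between its groups was narrow, and the log2 fold change came to 0.42 (SE 0.10, adjusted p = 0.00152).

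ITGA2, a collagen receptor chain (chromosome 5, 52989340 to 53094779, plus strand), had 2.76, 2.45 and 2.81 FPKM across mutant replicates, against 2.32, 1.86 and 1.61 FPKM across wild-type replicates. Its groups were close but did not overlap, and the log2 fold change was 0.44 (SE 0.11, adjusted p = 0.00331). ITGAE, the chain that binds E-cadherin on lymphocytes in epithelia (chromosome 17, 3714628 to 3801188, minus strand), had 3.36, 3.28 and 3.50 FPKM across mutant replicates, against 3.66, 3.50 and 3.68 FPKM across wild-type replicates. The groups met at 3.50 FPKM, and the difference did not pass (log2 fold change -0.13, 95% interval -0.29 to 0.03, adjusted p = 0.161), although it was called lower with quantile normalization (adjusted p = 0.0192). In GENCODE 29, 7.59% of ITGAE's exonic bases lie also in opposite-strand genes, mostly HASPIN, so its counts are uncertain. The 8 leukocyte markers used summed to 1.86 to 2.40 FPKM across mutant replicates, against 1.42 to 1.73 FPKM across wild-type replicates, most of it CORO1A. CORO1A, the only one of them tested, was called higher (log2 fold change 0.58, adjusted p = 0.00335). The pan-leukocyte gene PTPRC had at most 1 count in a library and CD3E had none. In bulk RNA, fewer cells of a type and less RNA per cell cannot be told apart.

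**Figure D2:**
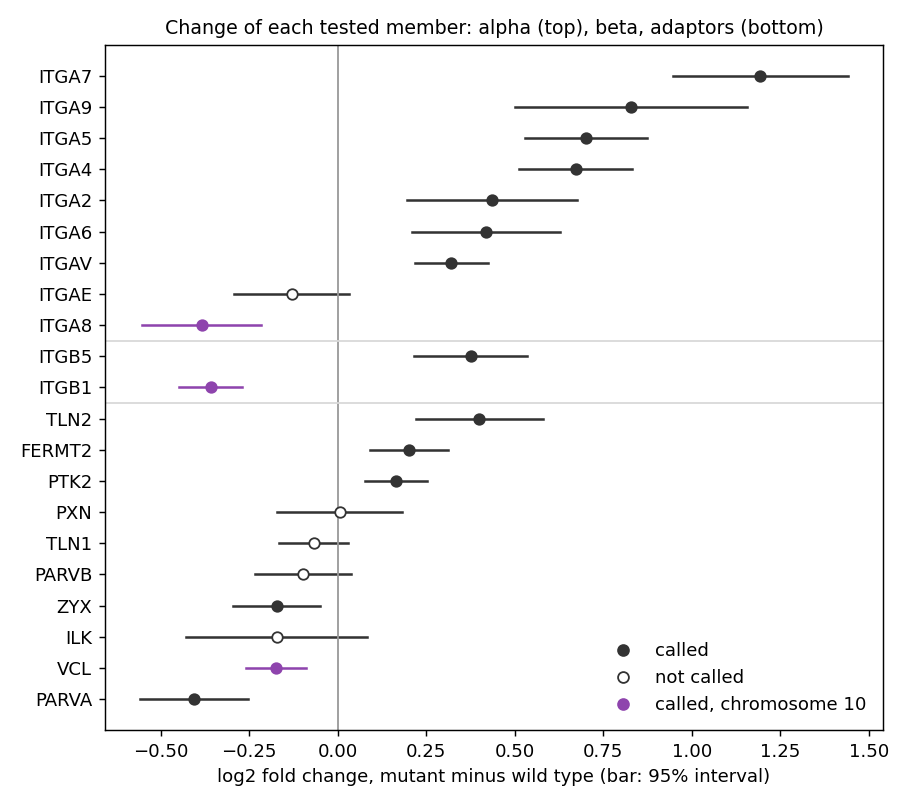
Log2 fold change of each tested member, mutant minus wild type, with its 95% interval; filled points were called and purple marks chromosome 10. ITGA7 lies at 1.19, and the 3 members on chromosome 10, ITGA8, ITGB1 and VCL, all lie below 0.

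ITGB1 and ITGB5, the beta subunits abundant enough to test, moved in opposite directions. ITGB1 (chromosome 10, 32887273 to 33005792, minus strand) had 9.41, 9.44 and 9.28 FPKM across mutant replicates, against 12.05, 11.36 and 11.85 FPKM across wild-type replicates. The mutant libraries lay close together and all below the wild-type libraries, and the log2 fold change came to -0.36 (SE 0.04, adjusted p = 1.03e-06). ITGB5, a partner of ITGAV in vitronectin receptors (chromosome 3, 124761948 to 124901418, minus strand), had 5.17, 5.20 and 5.65 FPKM across mutant replicates, against 4.29, 3.66 and 4.10 FPKM across wild-type replicates. All its mutant libraries were above all its wild-type libraries (log2 fold change 0.38, SE 0.08, adjusted p = 0.000388). ITGB5 thereby made up 34.9% ± 1.36 of summed beta subunit FPKM in the mutant and 24.9% ± 0.994 in the wild type (SD, n = 3 each), and ITGB1 61.4% ± 1.24 in the mutant and 72.9% ± 0.835 in the wild type. With GENCODE 29 lengths, which are far shorter for ITGB1, ITGB5 made up 18.7% ± 0.901 in the mutant and 12.3% ± 0.558 in the wild type, and ITGB1 78.9% ± 0.885 in the mutant and 86.5% ± 0.501 in the wild type.

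The sum of the alpha chains and the level of ITGB1 moved apart. All 17 alpha subunits together came to 34.53, 34.59 and 35.66 FPKM across mutant replicates, against 27.91, 25 and 25.17 FPKM across wild-type replicates. The alpha chains known to pair with ITGB1 (ITGA1 to ITGA11 and ITGAV) summed to 30.2 ± 0.595 FPKM in the mutant and 21.8 ± 1.42 FPKM in the wild type (SD, n = 3 each). ITGB1 transcript per unit of these partners was 0.315, 0.317 and 0.301 across mutant replicates, against 0.513, 0.540 and 0.565 across wild-type replicates. These ratios are a description of the transcripts, with no test, and say nothing of protein at the surface. The deposited exonic length of ITGB1 is 14561 bases, against 6011 bases in GENCODE 29, and that of ITGAV is 19336 bases, against 8211 bases. With the GENCODE 29 lengths the same ratio was 0.576 ± 0.0185 in the mutant and 0.995 ± 0.0356 in the wild type, so its level depends on the annotation. The mutant value was 0.577 times the wild-type value with the deposited lengths and 0.579 times with the others. A gene's length is the same in every library. ITGB1's length therefore cancels from this comparison, and only the weights of the alpha chains could change it.

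**Figure D3:**
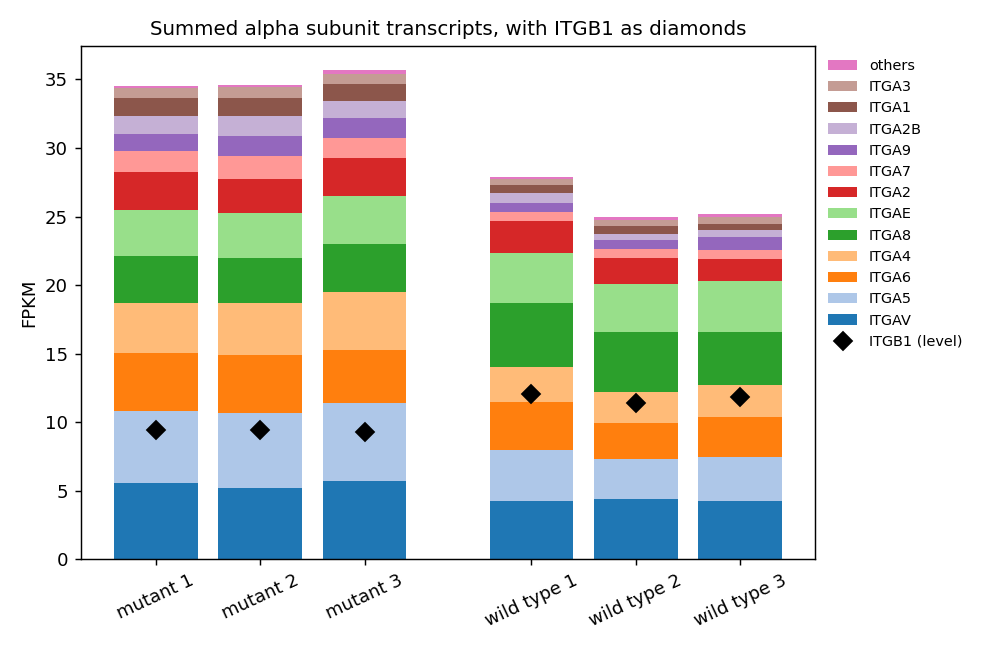
Stacked FPKM of the alpha subunits in each library, mutant on the left and wild type on the right, with the FPKM of ITGB1 as black diamonds. The stacks reach 34.53 to 35.66 in the mutant and 25 to 27.91 in the wild type, while the diamonds are lower in the mutant.

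The mixture of alpha chains also differed. RGD receptors held 44.9% ± 0.299 of summed alpha FPKM in the mutant and 47.8% ± 1.04 in the wild type, laminin receptors 18.5% ± 1.35 in the mutant and 15.9% ± 0.962 in the wild type, and collagen receptors 11.7% ± 0.507 in the mutant and 10.1% ± 1.10 in the wild type (SD, n = 3 each). The largest single change in share was that of ITGA8, with 9.72% ± 0.170 in the mutant and 16.6% ± 1.12 in the wild type. ITGAV held 15.7% ± 0.570 in the mutant and 16.5% ± 1.23 in the wild type, and ITGA5 15.6% ± 0.422 in the mutant and 12.6% ± 0.782 in the wild type. ITGA2B held 3.81% ± 0.377 in the mutant and 2.03% ± 0.477 in the wild type. Within the RGD receptors ITGA8 and ITGAV thus held less in the mutant, and ITGA5 and ITGA2B more. Leukocyte chains, nearly all of it ITGAE, held 9.83% ± 0.193 in the mutant and 14.1% ± 0.783 in the wild type, and ITGA4 with ITGA9 15.1% ± 0.886 in the mutant and 12.1% ± 1.06 in the wild type. With GENCODE 29 lengths ITGAV held 29.2% ± 0.903 in the mutant and 30.9% ± 1.88 in the wild type, while ITGA5 held 12.0% ± 0.345 in the mutant and 9.72% ± 0.737 in the wild type. The share of ITGAV thus depends on the length used. In the wild type ITGAV and ITGA8 were level with the deposited lengths, and with GENCODE 29 lengths ITGA8 held 12.8% ± 0.862.

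Of the transcripts whose products switch integrins on, TLN2 and FERMT2 rose and TLN1 did not pass. TLN1, the ubiquitous talin (chromosome 9, 35696948 to 35732195, minus strand), was the most abundant member, at 31.91, 28.93 and 31.03 FPKM across mutant replicates, against 33.29, 30.41 and 30.44 FPKM across wild-type replicates. Its groups overlapped, and the log2 fold change of -0.07 had a 95% interval of -0.16 to 0.03 (adjusted p = 0.211). TLN2, the talin of muscle and brain (chromosome 15, 62390526 to 62844631, plus strand), had 2.54, 2.50 and 2.47 FPKM across mutant replicates, against 2.16, 1.78 and 1.63 FPKM across wild-type replicates. It rose by 0.40 on the log2 scale (SE 0.08, adjusted p = 0.000587), with no overlap, and still made up only 7.57% ± 0.336 of talin FPKM in the mutant and 5.57% ± 0.506 in the wild type (SD, n = 3 each). FERMT2, kindlin-2 (chromosome 14, 52857268 to 52952435, minus strand), had 13.14, 12.33 and 11.52 FPKM across mutant replicates, against 10.47, 10.69 and 10.31 FPKM across wild-type replicates. The mutant libraries spread more widely than the wild-type libraries and all lay above them (log2 fold change 0.20, SE 0.05, adjusted p = 0.00316).

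In the ILK, PINCH and parvin complex, the parvin PARVA fell and the others did not pass. PARVA, an actin-binding partner of ILK (chromosome 11, 12377563 to 12535356, plus strand), had 1.82, 1.83 and 1.82 FPKM across mutant replicates, against 2.34, 2.35 and 2.39 FPKM across wild-type replicates. The spread within each group was far smaller than the gap between them, and the log2 fold change came to -0.40 (SE 0.07, adjusted p = 0.000115), the lowest value among the tested members. PARVB, its paralogue (chromosome 22, 43999211 to 44172939, plus strand), had 5.52, 5.26 and 5.03 FPKM across mutant replicates, against 5.39, 5.58 and 5.58 FPKM across wild-type replicates, with overlapping groups (log2 fold change -0.10, 95% interval -0.23 to 0.04, adjusted p = 0.199). ILK, the pseudokinase at the centre of the complex (chromosome 11, 6603708 to 6610874, plus strand), had 3.41, 3.26 and 2.94 FPKM across mutant replicates, against 3.95, 2.96 and 3.69 FPKM across wild-type replicates. The wild-type libraries of ILK were the more scattered, and the difference did not pass (log2 fold change -0.17, 95% interval -0.43 to 0.08, adjusted p = 0.233). In GENCODE 29, 78.5% of ILK's exonic bases lie also in a gene on the opposite strand, mostly TAF10, so its counts are uncertain. LIMS1, which encodes the PINCH protein of the complex, had 10.3 ± 0.368 FPKM in the mutant and 10.9 ± 0.481 FPKM in the wild type (SD, n = 3 each; log2 fold change -0.11, adjusted p = 0.0633).

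The actin linkers vinculin and zyxin fell slightly, and of the signalling scaffolds PTK2 rose slightly. VCL, which binds stretched talin (chromosome 10, 73995193 to 74121363, plus strand), had 19.15, 18.82 and 19.35 FPKM across mutant replicates, against 20.43, 21.40 and 21.40 FPKM across wild-type replicates. The groups did not overlap, and the log2 fold change came to -0.17 (SE 0.04, adjusted p = 0.00127). ZYX, which marks adhesions under tension (chromosome 7, 143381295 to 143391111, plus strand), had 24.50, 23.46 and 22.78 FPKM across mutant replicates, against 24.91, 24.52 and 28.54 FPKM across wild-type replicates. The gap between the groups was 0.02 FPKM wide (log2 fold change -0.17, SE 0.06, adjusted p = 0.0178), and the call was lost without mutant replicate 3 (adjusted p = 0.0812) and without wild-type replicate 3 (adjusted p = 0.143).

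PTK2, focal adhesion kinase (chromosome 8, 140657900 to 141002216, minus strand), had 12.31, 11.82 and 12.39 FPKM across mutant replicates, against 10.55, 10.47 and 10.84 FPKM across wild-type replicates. Every mutant library was higher, with log2 fold change 0.16 (SE 0.04, adjusted p = 0.00258). PXN, the paxillin gene (chromosome 12, 120210439 to 120265771, minus strand), had 4.20, 3.78 and 3.66 FPKM across mutant replicates, against 4.21, 3.58 and 3.56 FPKM across wild-type replicates. Its groups overlapped almost fully (log2 fold change 0.0055, 95% interval -0.17 to 0.18, adjusted p = 0.961). The antisense gene PXN-AS1 shares exonic bases with it, 12.4% of PXN's exonic bases lying in other genes.

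The members called lower sat largely on chromosome 10, whose genes as a whole were lower in the mutant. The median log2 fold change of the 492 tested genes of chromosome 10 was -0.36. ITGB1, ITGA8 and VCL are the 3 tested members there. The 25 tested genes nearest to each had medians of -0.42 for ITGB1 (2 higher and 14 lower), -0.40 for ITGA8 (3 higher and 17 lower) and -0.40 for VCL (2 higher and 14 lower). ITGB1 and ITGA8, at -0.36 and -0.38, lay close to these medians, and VCL, at -0.17, lay above its own. PARVA and ZYX fell among neighbours with medians of 0.07 and 0.23. The alpha subunits that rose had neighbour medians from -0.04 for ITGA2 to 0.15 for ITGAV. PARVB, not called, lies among genes of chromosome 22 with a median of -0.27. The part of the chromosome in each member's difference was not tested.

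**Figure D4:**
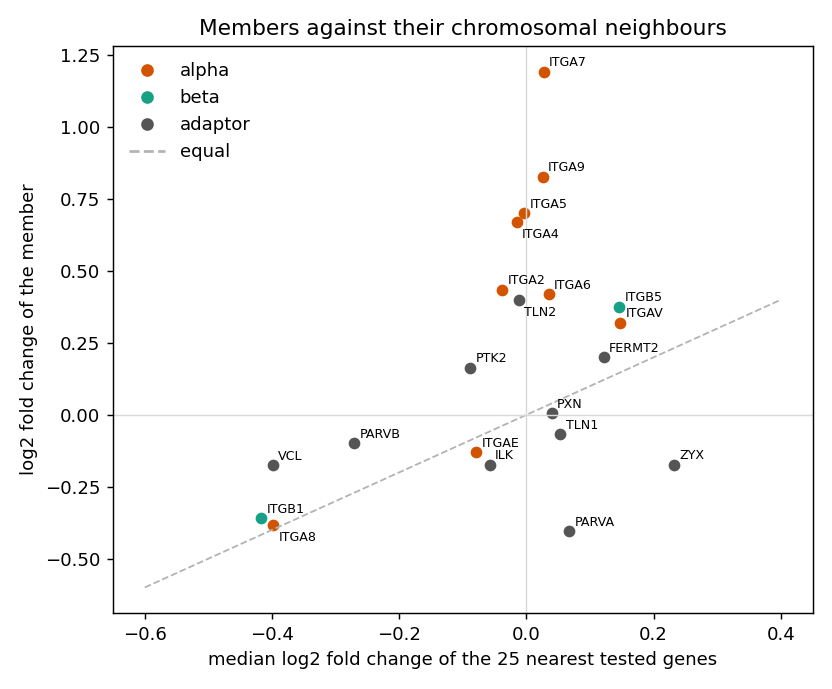
Log2 fold change of each tested member against the median log2 fold change of its 25 nearest tested genes; the dashed line marks equal values. ITGB1 and ITGA8 lie near the line at about their neighbours' medians of -0.42 and -0.40, while the alpha subunits that rose lie above it.

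The other 16 members had a mean below 1 FPKM. Because that minimum is on the mean of both groups, ITGA7 (mean 1.12 FPKM) and ITGA9 (mean 1.07 FPKM) passed it through their mutant values, while ITGA2B (mean 0.932 FPKM) and ITGA1 (mean 0.918 FPKM) stood just below it. In the same edgeR fit without the minimum, 36 members had a count, and 17 were called higher, 5 lower and 14 were not called, where 27.3% of all 32852 genes were called, 14.0% as higher and 13.3% as lower. By role these were 10 higher and 1 lower of 17 alpha subunits, 3 higher and 1 lower of 7 beta subunits with a count, and 4 higher and 3 lower of 12 adaptors. Of the 15 members below the minimum with a count, 6 were called, all of them higher.

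ITGA1, a collagen receptor chain (chromosome 5, 52787916 to 52959209, plus strand), had 1.28, 1.31 and 1.27 FPKM across mutant replicates, against 0.59, 0.56 and 0.50 FPKM across wild-type replicates. The log2 fold change was 1.15 (SE 0.11, adjusted p = 8.70e-26) with groups far apart, although the PELO gene shares exonic bases with ITGA1. Adjusted p-values of the edgeR fits with and without the minimum are not comparable. Without it ITGA7 had 2.66e-17, against 1.40e-07 with it, and PTK2 had 0.0371, against 0.00258. ITGA2B, the alpha chain of the platelet fibrinogen receptor (chromosome 17, 44372180 to 44389649, minus strand), had 1.29, 1.46 and 1.24 FPKM across mutant replicates, against 0.72, 0.44 and 0.44 FPKM across wild-type replicates (log2 fold change 1.25, SE 0.17, adjusted p = 7.23e-12). Its beta partner ITGB3 was near the floor of detection, with 21 counts in each mutant library and 8, 5 and 5 counts across wild-type replicates (log2 fold change 1.71, SE 0.44, adjusted p = 0.000533). In GENCODE 29, 51.6% of ITGB3's exonic bases lie also in an overlapping gene on the same strand, so its counts are uncertain. The 6 platelet markers summed to 0.420 to 0.880 FPKM across mutant replicates, against 0.710 to 1.39 FPKM across wild-type replicates, with no count for GP9, PF4 and PPBP in any library. GP1BA, at 0.590 FPKM in the mutant and 1.02 FPKM in the wild type, was called lower without the minimum, although its libraries overlapped (log2 fold change -0.83, adjusted p = 0.00613).

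ITGA3, a laminin receptor chain, had 0.76, 0.81 and 0.75 FPKM across mutant replicates, against 0.44, 0.45 and 0.51 FPKM across wild-type replicates, without overlap (log2 fold change 0.65, SE 0.16, adjusted p = 0.000245). FERMT1, the epithelial kindlin, had 0.81, 0.77 and 0.79 FPKM across mutant replicates, against 0.48, 0.59 and 0.53 FPKM across wild-type replicates (log2 fold change 0.50, SE 0.15, adjusted p = 0.00407). It rose although 20 of its 25 nearest tested genes on chromosome 20 fell and 0 rose, with a median of -0.56. ITGB8, which with ITGAV binds latent TGF-beta, had 45, 35 and 43 counts across mutant replicates, against 15, 26 and 24 counts across wild-type replicates (log2 fold change 0.83, SE 0.28, adjusted p = 0.0116), and its call was lost with DESeq2 (adjusted p = 0.0685), without mutant replicate 3 (adjusted p = 0.0667) and without wild-type replicate 1 (adjusted p = 0.106). Squamous epithelium markers summed to 12.0 to 14.4 FPKM across mutant replicates, against 12.2 to 14.4 FPKM across wild-type replicates, nearly all of it KRT10, with TP63, KRT14 and DSG3 at or below 0.0267 FPKM in each group.

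The remaining members were at the floor. ITGB6 had no count in any library. ITGB7 had 0 counts across mutant replicates, against 1, 0 and 1 counts across wild-type replicates, and the leukocyte chains ITGAL, ITGAM and ITGAX had at most 7 counts in a library. ITGA10, ITGA11, ITGB2, ITGB4 and the blood kindlin FERMT3 had 1 to 27 counts per library, and none of them passed the test.

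**Figure D5:**
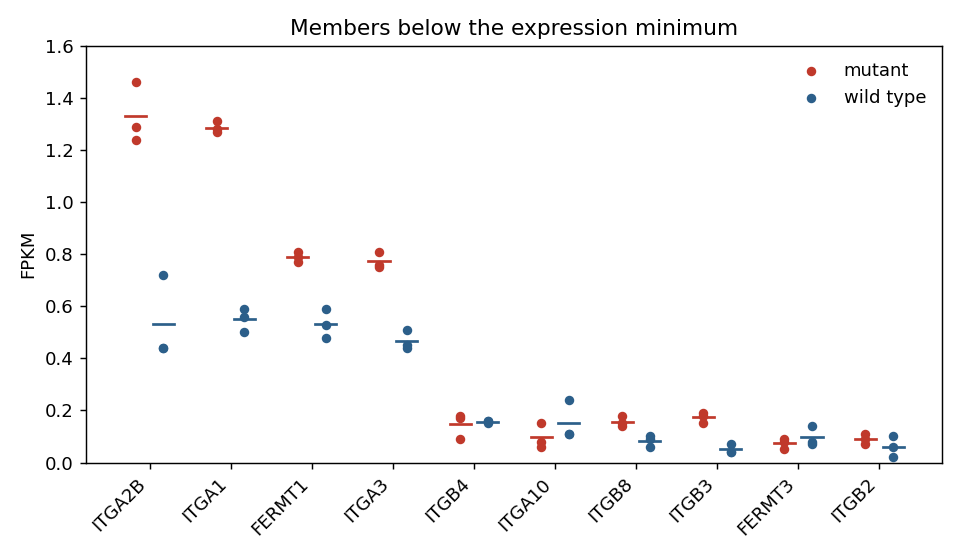
FPKM of members below the expression minimum that reached 0.1 FPKM in some library, with 1 point per library, mutant on the left and wild type on the right of each pair, and a bar at the mean. ITGA2B and ITGA1 stand at about 1.3 FPKM in the mutant and near 0.5 in the wild type; ITGB4, ITGA10, FERMT3 and ITGB2 overlap.

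Most ligand genes that could be tested rose, in a list chosen with earlier results of these data known. Of 42 integrin ligand genes, 26 were tested, 25 rose and 1 fell (TGFB3, log2 fold change -0.43), with a median log2 fold change of 0.74, where 29.3% of all tested genes rose. The minimum let in genes such as EDIL3 and COL12A1 through their mutant values. Without it, 26 ligand genes of the 41 with a count were called higher and 3 lower, where 14.0% of all genes were higher and 13.3% lower. The median log2 fold change of the 41 was 0.51. COL5A1, a fibrillar collagen chain, was among the 3, at 0.0133 ± 0.00577 FPKM in the mutant and 0.713 ± 0.114 FPKM in the wild type, and so was the laminin chain LAMA1, at 0.0167 ± 0.00577 FPKM in the mutant and 0.150 ± 0.0458 FPKM in the wild type. EDIL3, an RGD protein that binds ITGAV integrins, had 6.61 ± 0.378 FPKM in the mutant and 0.720 ± 0.200 FPKM in the wild type (SD, n = 3 each; log2 fold change 3.16). CCN1, a matricellular ligand of ITGAV and ITGA6 integrins, had 15.7 ± 2.54 FPKM in the mutant and 3.26 ± 0.186 FPKM in the wild type. The laminin chain LAMB1 had 8.80 ± 0.127 FPKM in the mutant and 4.22 ± 0.298 FPKM in the wild type. Fibroblast markers summed to 6.23 to 6.77 FPKM across mutant replicates, against 3.61 to 3.77 FPKM across wild-type replicates, mostly through COL1A1. COL3A1 stood at 1.12 ± 0.0513 FPKM in the mutant and 0.333 ± 0.0850 FPKM in the wild type, and PDGFRB at 0.140 ± 0.0400 FPKM in the mutant and 0.0433 ± 0.0153 FPKM in the wild type, both called higher without the minimum. LUM went the other way, at 0.0867 ± 0.0289 FPKM in the mutant and 0.183 ± 0.0764 FPKM in the wild type. PDGFRA stood at 0.287 ± 0.0850 FPKM in the mutant and 0.193 ± 0.0709 FPKM in the wild type. Neither was called without the minimum. DCN, THY1 and COL1A2 were at or below 0.0167 FPKM in each group. The part of these markers in the result was not tested.

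Of 52 further adaptor genes of adhesions, 40 were tested, 16 rose, 8 fell and 16 did not pass, with a median log2 fold change of 0.10. Called were thus 24 of 40, near the 58.1% called among all tested genes (29.3% higher, 28.7% lower). RSU1, which binds PINCH and lies on chromosome 10, had 17.4 ± 0.903 FPKM in the mutant and 24.8 ± 0.318 FPKM in the wild type (log2 fold change -0.54, adjusted p = 9.36e-08). The zyxin relative TRIP6 fell by 0.35 on the log2 scale, and the zyxin partner TES rose by 0.35. BCAR1, the docking protein p130Cas, stood at 5.19 ± 0.163 FPKM in the mutant and 5.02 ± 0.135 FPKM in the wild type (adjusted p = 0.835). ACTN1, the actin crosslinker of adhesions, rose by 0.10 (adjusted p = 0.0445), a call lost in 5 of the 6 fits with a library left out and with the replicate number as a block (adjusted p = 0.0830).

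Of 23 genes for integrin inactivation and traffic, 19 were tested, 5 rose, 4 fell and 10 did not pass, with a median log2 fold change of -0.02. The 9 of 19 called is a smaller share than the 58.1% called among all tested genes (29.3% higher, 28.7% lower). SLC3A2, the CD98 heavy chain that associates with beta chains, had 39.0 ± 0.641 FPKM in the mutant and 31.1 ± 0.140 FPKM in the wild type (log2 fold change 0.29, adjusted p = 4.29e-06). The endocytic adaptor NUMBL rose by 0.32, and the recycling GTPase gene ARF6 fell by 0.29. The tetraspanin CD151, a partner of laminin-binding integrins, stood at 15.9 ± 0.475 FPKM in the mutant and 15.8 ± 1.33 FPKM in the wild type (adjusted p = 0.697).

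RefSeq promoter windows (GRCh38.p14, 300 bases around each start, mostly upstream) were found for 26 members and searched on both strands for GGAATG, the core of the TEAD motif, and TGANTCA, the AP-1 motif, since TEAD and AP-1 factors act on adhesion genes. GGAATG was present in 5 of the 26 (ITGA10, ITGA5, ITGB1, PXN and VCL) and in 14.0% of all 35116 promoters. TGANTCA was present in 2 of the 26 (FERMT3 and ITGA5) and in 7.71% of all promoters. Members were counted by gene, with a match in any of its windows, and all promoters by window. The 2 rates are therefore not in the same unit. GGAATG matches are shown in capitals for a member that rose, 2 that fell and 1 that did not pass (PXN, on the reverse strand), because the members moved in both directions. They begin 82, 182, 171 and 67 bases upstream of the start in ITGA5, ITGB1, VCL and PXN.
ITGA5 (rose, chr12:54419323-54419368, minus strand): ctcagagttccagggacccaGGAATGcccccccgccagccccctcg
ITGB1 (fell, chr10:32958387-32958432, minus strand): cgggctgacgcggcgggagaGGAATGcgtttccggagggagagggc
VCL (fell, chr10:73997925-73997970, plus strand): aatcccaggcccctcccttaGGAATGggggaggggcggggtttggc
PXN (not called, chr12:120250205-120250250, minus strand): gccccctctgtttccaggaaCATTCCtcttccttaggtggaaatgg
These sequences were chosen to cover each direction, so they do not tell whether a match goes with a rise or a fall. A match does not show binding.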

How the data were processed

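The deposited table holds a count and an FPKM per gene and library. Cutadapt, HISAT2 2.0.1, HTSeq and the build GRCh38 are named in the submitters' processing notes, and neither the annotation release nor the strand setting is stated there. The deposited FPKM values equal the FPKM computed from the deposited counts, exonic lengths and library totals within 0.011 for 100% of values. Library totals limit the precision of counts, and intervals are from the fit.

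Counts were scaled by TMM and entered edgeR 4.0.16 (R 4.3.3), whose quasi-likelihood test had genotype as its single factor and covered 12550 genes averaging 1 FPKM or more; p-values were adjusted by Benjamini-Hochberg over all of them. Intervals are at 95%. The test was checked on simulated counts. Alternatives used limma 3.58.1, DESeq2 1.42.0, other scalings, filters and left-out libraries. The members and lists were chosen with earlier results of these data known. Every member is named; from each further list, the 3 called genes with the largest change and at least 5 FPKM in the higher group, plus CD151, SLC3A2, BCAR1, LIMS1 and ACTN1. TGFB3, COL5A1, LAMA1, COL12A1 and marker genes were named after their values were seen. Exon overlaps and ITGB1P1 came from GENCODE 29, in which 12 of the 37 members have identical coordinates. No libraries of a group were duplicates (chi-square per degree of freedom at least 2.28). A further leukocyte marker is not reported here.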

Additional observations from a re-analysis of the deposited data

How the results depend on the processing

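Counts moved mostly with the number of genes tested. With a mean FPKM of at least 5, 4 of 7 members were called (2 higher, 2 lower), 4600 genes in all (2285 higher, 2315 lower) and 12 of 12 ligands. Without a filter 17 members were higher. With TPM 3 members were lower, and without the genes of chromosome 10, chosen after seeing the data, 2. With libraries left out, 15 to 16 members were called. The chromosome 10 median was -0.33 with library totals, with quantile normalization, with a pseudocount of 0.1 and without a filter, -0.28 with TPM and with a pseudocount of 1, and -0.35 at a mean FPKM of at least 5. The summed alpha level differed by 0.42 on the log2 scale, by 0.40 to 0.48 over its alternatives. Of called genes 50.5% were higher, against 62.4% with TPM (4191 higher, 2525 lower; members 11 higher, 3 lower) and 47.6% with quantile normalization; the median of all genes moved by less than 0.1 (0.07 with TPM).

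The uncalled genes TLN1, PXN, CD151 and BCAR1 changed sign. TLN1 was at 0.0081 with quantile normalization and 0.0016 with TPM. PXN was at -0.073 with quantile normalization, -0.031 without a filter, -0.0076 without chromosome 10, and -0.057 to 0.089 with a library left out. CD151 was at 0.0030 with library totals, 0.018 with quantile normalization, 0.042 with TPM, 0.0052 and 0.0057 with pseudocounts of 1 and 0.1, 0.016 at the stricter minimum, and -0.087 to 0.025 with a library left out. BCAR1 was at -0.028 with quantile normalization, -0.021 without a filter, and -0.0092 to 0.039 with a library left out. VCL was not called with TPM (adjusted p = 0.0599), nor TLN2, ITGA2, ITGA9, ITGA3, FERMT1, ITGB8, ZYX and the list genes NUMBL and ACTN1 with quantile normalization of log2(FPKM + 1) values (0.0504 to 0.294). ZYX was not called in 6 of the settings that keep all libraries. ITGAE gained a call with quantile normalization (0.0192), and LIMS1 without a filter (0.0256), without wild-type replicate 1 (0.0132) and without chromosome 10 (0.0402). The cause was not tested. ITGA7 was at 0.48 with quantile normalization and 0.62 on the log2(FPKM + 1) scale, which understates low genes. ADORA1 was not called in any alternative (adjusted p 0.404 to 0.903). Replicate numbers did not pair the samples (correlation of deviations -0.04 to 0.0042 for equal numbers), and with the replicate block 16 members and 7074 genes were called; of the named genes, ACTN1 lost its call (adjusted p = 0.0830).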
